A study of Mus musculus with 9 samples.

Results

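WT-only distal islands are stretches of chromatin that carried H3K27ac in naive CD8+ T cells with intact Tcf7 and Lef1, where no stretch was called in cells lacking both genes. An island was taken when it stood in the WT list on an autosome, shared no base with any island of the dKO list, held at least 400 counts (reads falling in the island, summed over the pooled WT libraries) and lay more than 1 kb from every protein-coding transcription start site (TSS). Under this rule 1531 of the 65563 WT islands were members. They made up 5.87% of the 26066 WT autosomal islands that met the same count and distance limits. The presence of an island in each list set the class, and members were chosen by these H3K27ac counts and calls, so their sizes are a description and no test was made on them.

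The WT group held 4 H3K27ac ChIP-seq samples from hCD2-Cre+ Rosa26-GFP mice with Tcf7+/+ Lef1+/+ alleles. The dKO group held 3 samples from mice with the same Cre and reporter whose alleles were Tcf7 fl/fl and Lef1 fl/fl, with the genotype label Tcf1-/-Lef1-/-. Each genotype had 1 input sample. Both groups carried the Cre transgene, active mainly in mature peripheral T cells, and the GFP reporter of its activity. Mice were 6 to 12 weeks old and on the C57BL/6 background, and how many mice gave each sample is not given in the sources used here. The cells were spleen T cells sorted as GFP+ TCRbeta+ CD62Lhi CD44lo-med CD8+. The replicates of a genotype had been pooled before islands were called, so each island has 1 count per genotype and no spread between replicates can be given. The 95% Wilson and exact Poisson intervals cover counting error only.

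H3K27ac is an acetyl mark on histone H3 that is laid down at active enhancers and promoters. Enhancers away from promoters differ most between cell types and are read by sequence-specific transcription factors. Tcf1 and Lef1, the products of Tcf7 and Lef1, are high mobility group factors that bind closely related letters, bend DNA and serve T cell development and the upkeep of T cell identity. Wide islands with much H3K27ac often hold several enhancers side by side.

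Sequences of 6 places within members are shown, each of 300 bases of the plus strand of mm9. The first pair surround the accessible sites that the study linked to App and Acpp, which were the only sites of that list inside members. The others are windows of members with high counts, placed where Tcf/Lef letters were densest. Capitals mark the letters CTTTGAT, which read ATCAAAG on the other strand, and CTTTGAA, which read TTCAAAG there. Neighbouring matches can share up to 2 bases.

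App site, chr16:84982832-84983131: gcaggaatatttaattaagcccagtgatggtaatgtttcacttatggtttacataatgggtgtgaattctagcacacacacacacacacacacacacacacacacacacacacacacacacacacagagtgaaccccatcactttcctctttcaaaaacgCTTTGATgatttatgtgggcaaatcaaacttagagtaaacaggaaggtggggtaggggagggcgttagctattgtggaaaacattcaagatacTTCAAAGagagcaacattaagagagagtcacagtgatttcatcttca

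Acpp site, chr9:104233616-104233915: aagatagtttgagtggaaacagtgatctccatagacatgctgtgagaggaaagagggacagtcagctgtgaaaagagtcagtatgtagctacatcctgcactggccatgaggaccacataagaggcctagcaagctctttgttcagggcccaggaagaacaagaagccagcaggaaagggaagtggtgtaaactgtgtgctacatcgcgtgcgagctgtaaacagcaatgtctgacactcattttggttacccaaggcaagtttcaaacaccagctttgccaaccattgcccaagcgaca

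Pmp22 island, chr11:62963898-62964197: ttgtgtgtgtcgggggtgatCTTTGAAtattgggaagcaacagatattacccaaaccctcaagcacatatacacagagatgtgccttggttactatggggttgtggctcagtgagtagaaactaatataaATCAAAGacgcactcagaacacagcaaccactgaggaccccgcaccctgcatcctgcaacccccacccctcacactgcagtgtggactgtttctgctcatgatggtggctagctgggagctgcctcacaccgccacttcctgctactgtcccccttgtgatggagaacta

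Marco-nearest island, chr1:122358195-122358494: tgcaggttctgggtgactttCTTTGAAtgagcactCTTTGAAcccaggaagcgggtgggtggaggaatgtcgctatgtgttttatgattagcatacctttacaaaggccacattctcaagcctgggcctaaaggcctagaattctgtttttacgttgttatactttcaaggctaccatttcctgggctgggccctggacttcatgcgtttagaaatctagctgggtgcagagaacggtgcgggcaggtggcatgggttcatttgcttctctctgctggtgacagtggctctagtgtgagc

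Ntrk3 island, chr7:85594361-85594660: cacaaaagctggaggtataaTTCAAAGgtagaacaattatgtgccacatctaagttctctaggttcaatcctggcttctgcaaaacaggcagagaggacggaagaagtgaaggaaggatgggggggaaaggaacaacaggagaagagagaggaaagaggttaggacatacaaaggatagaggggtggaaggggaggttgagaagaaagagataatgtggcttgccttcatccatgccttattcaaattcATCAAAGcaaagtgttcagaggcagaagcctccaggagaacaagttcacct

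Ryr2 island, chr13:12050500-12050799: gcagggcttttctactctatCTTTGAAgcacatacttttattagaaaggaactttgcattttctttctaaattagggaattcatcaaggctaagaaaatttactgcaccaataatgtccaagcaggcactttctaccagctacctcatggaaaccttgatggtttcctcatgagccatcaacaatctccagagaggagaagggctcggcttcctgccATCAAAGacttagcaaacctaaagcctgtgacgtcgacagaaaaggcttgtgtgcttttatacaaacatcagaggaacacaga

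The window at the App site held 2 matches and the window at the Acpp site held 0. Each of the other 4 windows held 2 matches, which is how they were placed.

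The cells were checked against their label through islands within 1 kb of marker gene TSSs. Promoter counts of a gene sum all islands within 1 kb of any of its annotated TSSs, those inside the gene included. Here and below, counts are raw unless said to be scaled, and total island counts in dKO were 0.698 of those in WT. All 8 CD8 T cell markers, Cd8a and Cd3e among them, had promoter islands in both lists, with 6799 to 29951 counts in WT and 4337 to 14059 in dKO. Markers of other cells were not all without islands. Cd4 and Foxp3, helper and regulatory T cell genes, had 1168 and 958 counts in WT and 1730 and 6938 in dKO, while the third such marker, Zbtb7b, had 3706 in WT and 2689 in dKO. Among 6 B cell markers, 4 had a WT island and 5 had a dKO island, with summed counts of 23482 in WT and 23589 in dKO, while Ebf1 had none in either list and Pax5 none in WT. Of 3 NK cell markers only Klrb1c had an island in either list. All 5 myeloid and both erythroid markers had islands in both lists, with 580 to 7262 WT counts in the first set and 515 to 1459 in the second. The part of other cells in the islands described here was not tested. A region where fewer cells carried the mark and a region where each cell carried less of it cannot be told apart in these pooled cells.

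Most WT islands that lacked a dKO island were small. Of 9800 such islands, 14.9% of the WT list, 9396 were autosomal and 8618 of these lay more than 1 kb from a protein-coding TSS. Of these distal islands 7087 fell under the count minimum, with a median of 234 counts and a median depth of 122.5 counts per kb. A further 253 autosomal ones with at least 400 counts stood within 1 kb of a TSS. Just inside the minimum, members nearest to Cenpl, Cry1 and Gm17368 had 400 counts each. Just outside it, islands near Asph, Tes and Reep1 had 399 counts each. On the distance limit, the closest members lay 1018 bp from a TSS of Rfx4, 1051 bp from Gm6177 and 1080 bp from Nnmt, while islands 984 bp from Dcst1, 919 bp from Efcab10 and 867 bp from Gm10576 were left out. No gap in counts or in distance separated the members from the islands next to them.

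Members held 400 to 3440 counts, with a median of 508, and 1400 to 22200 bp in width, with a median of 4200 bp. Here and below, WT distal islands are those with at least 400 counts unless said otherwise. WT distal islands that overlapped a dKO island (shared islands, 24535 of them) had medians of 818 counts and 5600 bp. Depth per kb also differed, with a median of 122 counts per kb over members (range 89.3 to 298) and 145 over shared islands. Members were therefore narrower and shallower than shared islands as a class, although their ranges overlapped widely. The dKO-only distal islands found by the mirrored rule, 1496 of 19452 (7.69%), had a median of 513 counts over a median of 5800 bp, or 88.5 counts per kb. Counts were raw and total island counts in dKO were 0.698 of those in WT, so 400 counts was a stricter minimum in dKO. Here and below, shares, widths and depths of dKO-only islands and members are therefore not at like thresholds.

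The share of WT distal islands without a dKO island dropped steeply with size. It was 12.4% (1059 of 8515) from 400 to 600 counts, 5.33% from 600 to 800 counts and 3.18% from 800 to 1200 counts. Only 5 of 1848 islands with 2000 to 3000 counts were members, 0.27% (95% interval 0.12 to 0.63%), as were 4 of 1982 with 3000 or more. The share also dropped with depth per kb. Below 100 counts per kb 38.4% of WT distal islands lacked a dKO island, and at 200 or more this was 0.65% (24 of 3713). The strong members named below were thus rare among islands of their size.

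**Figure D1:**
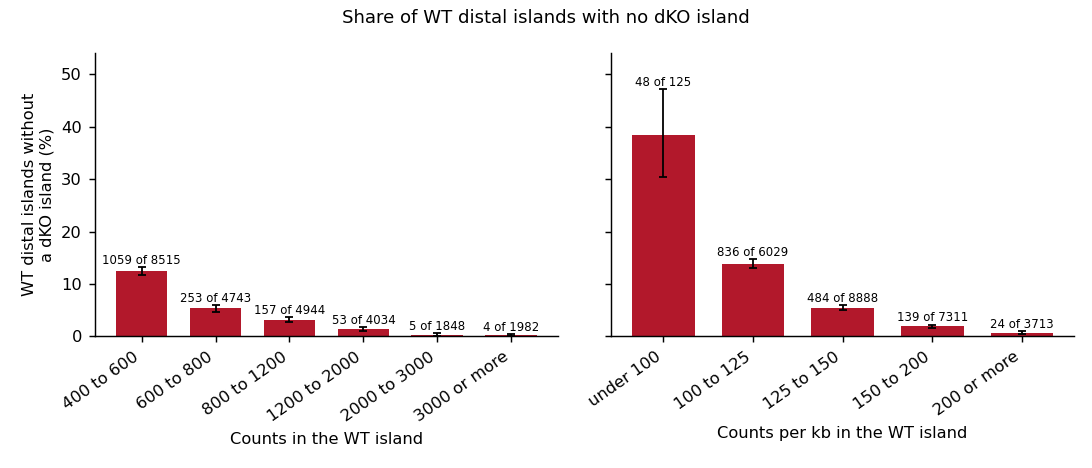
Bars give the percent of WT distal autosomal islands with at least 400 counts that shared no base with a dKO island, by counts in the island (left) and counts per kb (right). Error bars are 95% Wilson intervals, which cover counting error only, and the share drops from 12.4% to 0.20% with counts and from 38.4% to 0.65% with depth.

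**Figure D2:**
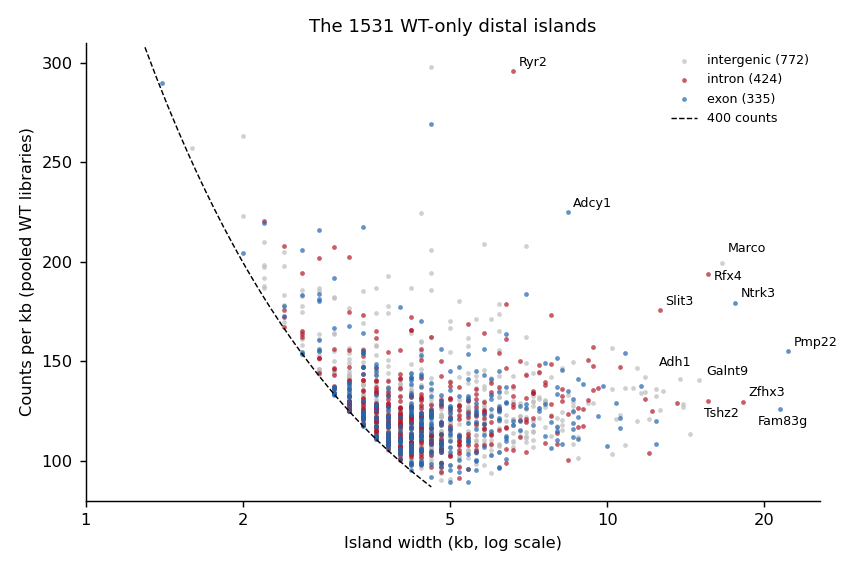
Each point is 1 of the 1531 WT-only distal islands, with width in kb on a log axis and counts per kb in the pooled WT libraries on the other axis. The dashed line is the minimum of 400 counts and the 12 members with the most counts are named by their nearest gene, 10 of them 12.6 to 22.2 kb wide.

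To ask how deep the members would stand in the shallower dKO list, their counts were multiplied by 0.698, the ratio of total island counts of the lists (57665047 in dKO, 82668007 in WT). On this scale the 400-count minimum was 279 counts and the members' median depth was 85.0 counts per kb. The median over 65858 dKO distal islands was 95 counts per kb, and 322 members (21.0%) exceeded it, or 11.0% when the lists were scaled by their mean counts per kb. The 10th percentile of those dKO islands was 77.9 counts per kb, and 1167 members (76.2%) exceeded that. Set against dKO distal islands of the same width within 200 bp, 70 members exceeded the 90th percentile of counts, while 315 were under the 10th percentile. The median member stood at the 28.9th percentile. These depths rest on the counts that chose the members, so they describe where the members stood and not whether they would have been called in dKO. An absent island is not a count of 0, and the reads in these places in dKO were not analysed here.

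Members lay farther from protein-coding TSSs than shared islands. Their median distance to a protein-coding TSS was 27040 bp, against 22026 bp for shared islands, and 33.5% (31.2 to 35.9%) lay more than 50 kb away against 27.6% (27.1 to 28.2%). The share inside a protein-coding gene body was 49.6% for members and 50% for shared islands, with 335 members on an exon, 424 within introns alone and 772 between genes. The dKO-only islands stood differently, with 65% in gene bodies and 44.6% on an exon. TSSs of other annotated genes lay within 1 kb of 45 members, 2.94%, against 6.5% of shared islands. Among intergenic members 17 of 772 overlapped a lincRNA gene, 2.2% (1.38 to 3.50%), against 4.09% of intergenic shared islands. Members came from all 19 autosomes, from 3.46% of the WT distal islands on chromosome 17 to 8.28% on chromosome 4.

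The nearest dKO island was usually close. The median gap was 3800 bp, with 22.7% of members within 1 kb of a dKO island, 57.3% within 5 kb, 93.3% within 50 kb and 96.6% within 100 kb. The farthest 3 lay in introns of large genes. An Auts2 intron held a member of 939 counts with its nearest dKO island 1579.4 kb away. Auts2 is a gene of neuronal development. In Prex2, a Rac exchange factor gene, a member of 426 counts stood 901 kb away, and in Gpc5, a glypican gene, a member of 403 counts stood 814.6 kb away. Their WT surroundings were also sparse for 2 of them, with the next WT island 902600 bp away in Prex2 and 955800 bp away in Gpc5, against 21600 bp in Auts2. The Auts2 promoter had 637 WT counts and no dKO island.

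Members often stood beside other WT islands without a dKO island. For 623 members (40.7%, 38.3 to 43.2%) the nearest other WT island also lacked a dKO island, against 9.52% (9.16 to 9.89%) of shared islands. The dKO-only islands stood likewise, at 45.7% against 14.0% of dKO islands shared with WT, and so did WT-only distal islands under the count minimum, at 30%. In the 10 kb on either side of a member, WT islands covered a median of 31.0% and dKO islands 17.0%. Around shared islands these medians were 49% and 58%. No dKO island touched those flanks for 439 members (28.7%) and for 2.59% of shared islands. The flank contrast and that of the nearest WT islands are set in part by the rule. Each shared island has an overlapping dKO island that can reach into its flanks or to the next WT island, and no member has one.

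**Figure D3:**
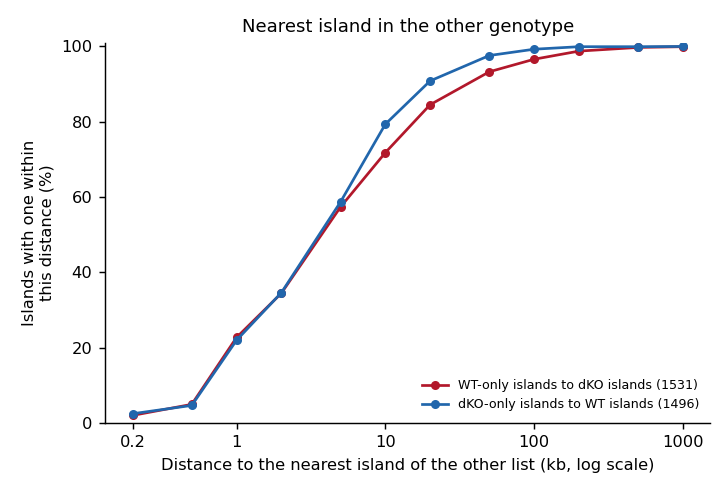
Lines give the percent of islands that have an island of the other genotype's list within the distance on the log axis in kb, for the 1531 WT-only islands and the 1496 dKO-only islands. The curves lie together up to 5 kb, where they reach 57.3% and 58.7%, and at 50 kb they stand at 93.3% and 97.6%.

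The member with the most counts covered most of Pmp22, which encodes a membrane protein of peripheral myelin. It held 3440 counts (exact Poisson interval 3326 to 3557) over 22.2 kb at chr11:62950401-62972600, overlapped exons, and lay 3.83 kb from a TSS. The nearest dKO island stood 60.6 kb away with 290 counts. The Pmp22 TSS itself had no island in either list. On the scale of the dKO list the island would hold 2399.6 counts, at the 18.9th percentile among 53 dKO islands of its width.

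Next came an intergenic member nearest to Marco, which encodes a scavenger receptor of macrophages. It held 3312 counts over 16.6 kb at chr1:122350801-122367400, 34.3 kb from the TSS and 147.8 kb from a dKO island. This island belonged to a run of 4 members spanning 49.2 kb with 6750 counts and no dKO island. The third, with 3157 counts, overlapped an exon of Ntrk3, the gene of the neurotrophin receptor TrkC, at chr7:85593201-85610800. A member in an intron of Rfx4, an RFX family transcription factor gene, had 3021 counts and lay 1018 bp from a TSS at chr10:84226001-84241600. These 4 were the only members with 3000 or more counts.

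The other 8 of the 12 members with the most counts held 1888 to 2697. Fam83g, of a family whose proteins anchor casein kinase, carried 2697 counts over 21.4 kb on exons, with a dKO island 2.8 kb away. At 126 counts per kb this island was shallow, and no dKO island of its width had fewer scaled counts. Zfhx3, a zinc finger homeobox gene, carried 2360 counts in an intron, only 0.8 kb from a dKO island of 234 counts. A Slit3 intron held 2213 counts at 176 counts per kb, with the nearest dKO island 173.8 kb away. Slit3 is a secreted ligand of Robo receptors known from axon guidance. Upstream of Galnt9, a gene of mucin-type glycosylation, an intergenic member held 2108 counts, 0.4 kb from a dKO island of 267 counts. The Galnt9 promoter had 8829 WT counts and no dKO island. In Tshz2, a teashirt family zinc finger gene, the strongest member held 2033 counts. An intergenic member 12.2 kb from Adh1, an alcohol dehydrogenase gene, held 1948 counts, 25.6 kb from a dKO island.

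Ryr2 and Adcy1 had the densest of these strong members. An intron of Ryr2, which encodes the calcium release channel of heart muscle, held 1952 counts within 6.6 kb at chr13:12048001-12054600, or 296 counts per kb. This was more than 98.9% of dKO islands of that width after scaling. It stood 145 kb from a TSS and 99.6 kb from a dKO island of 126 counts. Adcy1, which encodes an adenylyl cyclase stimulated by calcium and calmodulin, held 1888 counts within 8.4 kb at chr11:7044001-7052400, or 225 counts per kb. A second Adcy1 member 600 bp away held 624 counts. The Adcy1 promoter had 644 WT counts and no dKO island, and the whole gene body held 3461 WT counts and no dKO island.

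Among members with the most counts per kb, an intergenic one 51.0 kb from Foxq1, a forkhead factor gene, came first. It held 1370 counts over 4.6 kb at chr13:31594401-31599000, or 298 counts per kb, and its nearest dKO island was 366.4 kb away. Snd1, a gene of a nuclease domain protein, held 1238 counts over 4.6 kb on an exon, or 269 counts per kb. Between genes, with Rngtt, an mRNA capping enzyme gene, as the nearest at 262 kb, a member held 988 counts at 225 counts per kb. The remaining 3 of the top 8 were narrow, at 1.4 kb in 4930534B04Rik (406 counts), 1.6 kb between genes 67.5 kb from 9230109A22Rik (411 counts) and 2 kb between genes 118 kb from 4930546C10Rik (526 counts). All 8 exceeded at least 91.4% of dKO islands of like width after scaling.

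Members joined into runs when no more than 50 kb separated them. Counts given below for runs, gene bodies and promoters are raw in both lists, of which the dKO list was the shallower. There were 1153 such runs, of which 931 held a single member and 222 held 2 or more, with 600 members in these. Of the 222 runs, 91 spanned no dKO island. The run with the most members lay within Ntrk3, with 14 members and 12653 counts over 164.8 kb at chr7:85545001-85709800. All 19 WT islands of that stretch together held 13855 counts, and the dKO list had 0 islands there. Over the whole Ntrk3 body (386 kb), WT had 24 islands with 17937 counts over 134 kb and dKO had 1 island with 143 counts over 1.4 kb. The members of Ntrk3 ranged from 420 to 3157 counts with a median of 714.5, and from 105 to 179 counts per kb. Distances to the single dKO island of the gene ran from 3.6 to 164 kb. At the 5' end of Ntrk3, in reach of a TSS and so outside the rule, a WT island held 2262 counts and dKO had none.

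Tshz2 held the most members of any gene body, 15 of its 29 WT distal islands. They ranged from 403 to 2033 counts with a median of 920, and 13 of them formed a run of 264.8 kb at chr2:169632001-169896800. Here dKO islands lay between the members. The dKO list had 24 islands with 11497 counts over 114.2 kb in the gene, against 35 WT islands with 50071 counts over 308.8 kb. Of the 24 dKO islands 22 overlapped WT islands. The Tshz2 promoter had 149 WT counts and no dKO island. Members of Tshz2 were thus stretches between islands that both genotypes had.

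Slc4a4, which encodes an electrogenic sodium bicarbonate cotransporter, held 12 members among 18 distal islands, with 519 to 1753 counts and a median of 735.5. A run of 9 of them at chr5:89484001-89581400 held 7500 counts, with 1 dKO island of 177 counts in the same 97.4 kb. In the whole gene WT had 32 islands with 22594 counts and dKO had 7 with 2035 counts, all 7 overlapping WT islands. At the 5' end of Slc4a4 a WT island held 350 counts and dKO had none. A run of 9 members with 5679 counts, 102 to 228 kb from the TSSs of Agbl1 or Klhl25, was as long in members, and it spanned 6 dKO islands with 1452 counts.

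**Figure D4:**
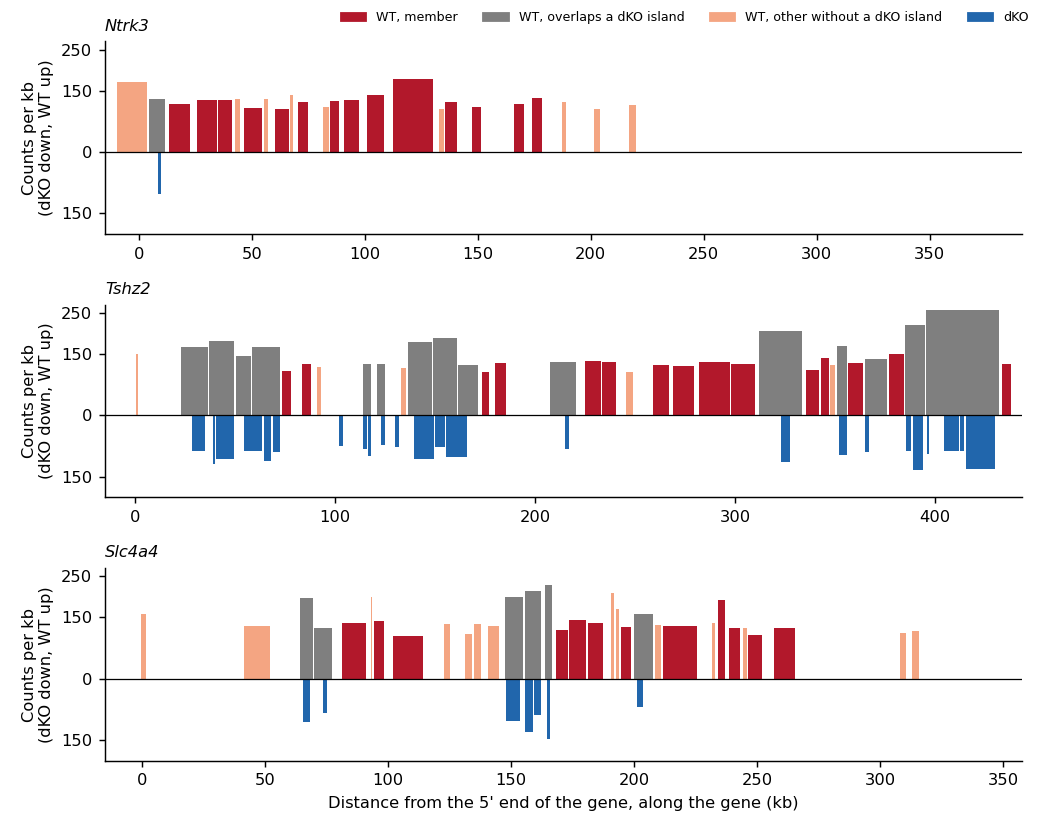
H3K27ac islands along Ntrk3, Tshz2 and Slc4a4, with distance from the 5' end of the gene in kb on the horizontal axis and counts per kb on the vertical axis, WT drawn upward and dKO downward and neither scaled for depth. Red WT bars are members, grey ones overlap a dKO island, orange ones lack a dKO island but are under 400 counts or within 1 kb of a TSS, and the single blue dKO bar in Ntrk3 lies near its 5' end.

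Among the other genes with the most members, Pdzrn3, a ubiquitin ligase gene, held 5 of 8 distal islands as members, with 443 to 1546 counts. All 5 formed a run of 47.2 kb without a dKO island, and the Pdzrn3 promoter had 749 WT counts and no dKO island. Tmcc3 held 6 of 14 as members, with 421 to 847 counts, and its promoter had islands in both lists, 6881 counts in WT and 3042 in dKO. AF064781 held 8 of 18, and the overlapping annotation Palm2 held 7 of 11, all 7 of them among the 8, with 404 to 717 counts. Fhit, a diadenosine phosphate hydrolase gene, held 5 of 23 as members and Inpp4b held 5 of 27. Arfip1 is annotated over 1391.4 kb that hold Fbxw7 as well, and 7 of 38 distal islands there were members, with 426 to 514 counts. Rfx4 held 4 of 6, from 536 to 3021 counts. In each of Tmcc3, AF064781, Palm2, Fhit, Inpp4b and Rfx4 dKO islands were present in the gene body as well, from 11 in Rfx4 and Palm2 to 53 in Inpp4b. Pdzrn3 had 6 dKO islands with 1485 counts outside its run. The Arfip1 body had 88 dKO islands, more than its 70 WT islands.

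Other runs far from a TSS were looked up after their values were seen, and their nearest genes are given as landmarks only. One run held 7 members and 6387 counts over a span of 134.8 kb, with 4 dKO islands of 862 counts among them. Its members lay 516 to 646 kb from the nearest gene, Id2, an inhibitor of basic helix-loop-helix factors, and the strongest held 1776 counts. A run of 4 members 86.4 to 197 kb from Icos, a costimulatory receptor gene, held 2424 counts, and 4 dKO islands there held 1307. A run of 4 members 59.6 to 100 kb from Nr4a3, a nuclear receptor gene induced by T cell receptor signals, held 2535 counts, and 3 dKO islands there held 783. Runs without a dKO island included 6 members of 412 to 689 counts nearest to Galnt7, 87.6 to 141 kb from its TSS, and 5 of 433 to 513 counts nearest to Mllt3, 91.6 to 168 kb from its TSS.

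In all, 587 protein-coding gene bodies held a member and 33 held at least 3. All distal WT islands with at least 400 counts were members in 17 genes that had at least 2, which were chosen here after their values were seen. Other WT islands stood in these genes as well. Counting every size and promoters, Pde7b had 15 WT islands, Egfr 12 and Osbpl6 9. Osbpl6, an oxysterol-binding protein family gene, led with 4 members of 1480, 957, 1277 and 412 counts, and only 1 dKO island, of 165 counts at the promoter, stood in the gene. Egfr, the epidermal growth factor receptor gene, held 3 members of 656 to 812 counts, and its promoter had 385 WT counts and no dKO island. Npsr1 and Spats2l held 3 members each, 431 to 830 and 415 to 678 counts, with 1 dKO island each in the gene. Pde7b, a cAMP phosphodiesterase gene, held 3 members of 475 to 530 counts, and 15 dKO islands with 2946 counts lay elsewhere in that gene.

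Promoters of the host genes were looked up because the rule left them out. Their islands come from the same pooled lists, in which WT-only islands often stood near each other. The shares below are therefore not independent of how the members were chosen. Of the 587 genes with a member in the body, 53 had a promoter island (within 1 kb of any annotated TSS) in the WT list alone, 9.03% (6.97 to 11.6%), and 16 had one in the dKO list alone, 2.73%. Among 4353 genes that held a shared distal island and no member, 86 had a WT island alone, 1.98% (1.60 to 2.43%), and 120 a dKO island alone, 2.76%. Both lists had a promoter island in 73.1% of the genes with a member and in 89.0% of the others. With 3 or more members in the body, 9 of 33 genes had a WT promoter island alone, 27.3% (15.1 to 44.2%). Gene length differed between these sets, with median bodies of 92.2 kb for genes with a member, 328 kb with 3 or more and 49.8 kb for genes with shared islands only. The part of length in these shares was not tested.

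To ask how members stood to genes of changed expression, the study's lists from RNA-seq of separate libraries were used as names only. A territory was the gene body with 50 kb upstream. Territories of 236 autosomal genes downregulated in dKO held 49 members, 3.20% (2.43 to 4.21%), against 2.44% (2.25 to 2.64%) of shared islands and 1.67% of dKO-only islands. Territories of 281 upregulated genes held 15 members, 0.98% (0.59 to 1.61%), against 3.66% (3.43 to 3.90%) of shared islands and 5.35% of dKO-only islands. Read the other way, 7.57% (5.78 to 9.87%) of the 647 WT distal islands around downregulated genes were members and 1.64% (0.999 to 2.70%) of the 912 around upregulated genes, beside 5.87% over all such islands. With this territory the share around downregulated genes was near this background, which its interval included, and the share around upregulated genes was under it. Other territories gave other shares. In gene bodies alone, downregulated genes held 1.37% of members and 1.23% of shared islands. By the nearest TSS these were 4.70% (3.75 to 5.88%) and 2.60% (2.41 to 2.81%), so the reading for downregulated genes changed with the setting. By the nearest TSS, upregulated genes held 0.59% of members and 4.02% of shared islands. Members of 1 gene share its territory and are not independent, and the 49 belonged to 35 genes.

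**Figure D5:**
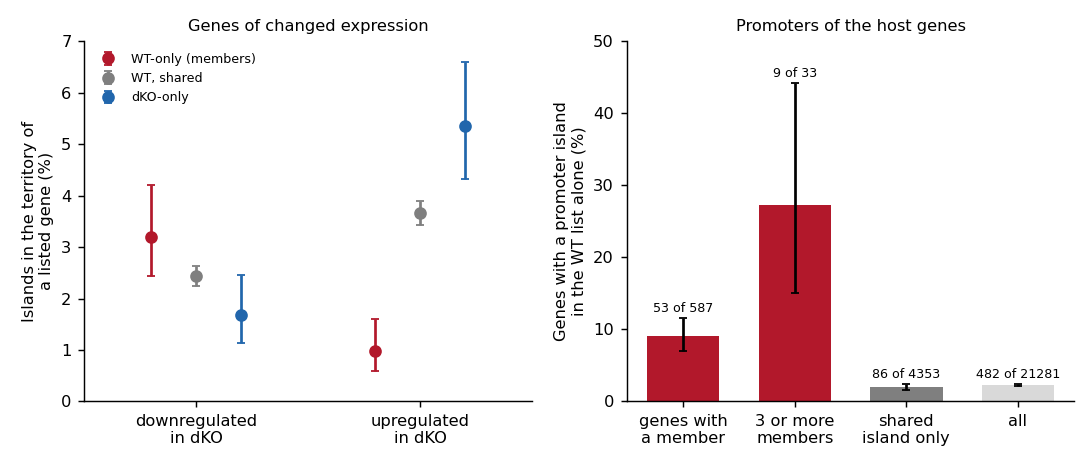
Left, percent of WT-only, shared and dKO-only distal islands inside the territory of a gene downregulated or upregulated in dKO, as points with 95% Wilson intervals. Right, percent of genes with a promoter island in the WT list alone, as bars with 95% Wilson intervals and counts, which is 9.03% of genes with a member, 27.3% with 3 or more, 1.98% with shared islands only and 2.26% of all.

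Inpp4b had the most members of any downregulated gene. It encodes a phosphatase of phosphoinositide signalling. Its 5 intronic members held 457, 494, 501, 447 and 455 counts, so all stood near the minimum, and each lay within 5.8 kb of a dKO island. Cyth3, an Arf exchange factor gene, had 4 members in its upstream 50 kb, with 422, 596, 458 and 1732 counts. No dKO island stood in the 36.2 kb of that run. The Cyth3 promoter had islands in both lists, with 16358 raw counts in WT and 4190 in dKO. Pou2af1, the gene of a coactivator of octamer factors known from B cells, had 2 upstream members of 547 and 1679 counts, each 1.8 kb from a dKO island. App, the amyloid precursor protein gene, had 2 of its 3 distal islands as members, of 825 and 910 counts, and its promoter had 467 WT counts and no dKO island.

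The other downregulated genes with 2 members were Inpp5f (446 and 967 counts), Dip2c (512 and 645), Stk39 (400 and 587), Myo5a (442 and 444) and, added after its values were seen, Ccdc53 (439 and 410). Cdr2 and Mettl9 are neighbours and shared the same 2 members, of 404 and 819 counts. Inpp5f is a phosphoinositide phosphatase gene, Stk39 encodes a kinase that regulates cation chloride transport, and Myo5a encodes an actin motor. Among upregulated genes Prkce, the gene of protein kinase C epsilon, had 2 members of 956 and 1242 counts among 23 distal islands. Single members stood at Nedd4, a ubiquitin ligase gene (1133 counts), 1700026L06Rik (910), Tdrkh (788), Cd83 (691), March3 (639), Ubash3b (568) and Cdc25b (525). Gsg2 lies inside Itgae, and both had the same member of 705 counts.

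Lists of genes known in T cells held few members. Territories of 41 T cell transcription factor genes held 4 members among 226 WT distal islands, 1.77%. These stood at Foxp1 (905 counts), Bach2 (506), Zeb2 (489) and Zeb1 (448). The list of T cell receptor signalling and costimulation genes had 0 members among 107 distal islands, whose interval reaches 3.47%, and the list of effector and cytotoxic genes had 0 of 66, whose interval reaches 5.50%. For naive homing and survival genes 1 of 67 was a member, the island at Itgae, an integrin gene. Genes of Wnt signalling and partners of Tcf factors had 4 of 119, at Tcf7l1 (687 counts), Tcf7l2 (685), Tle3 (683) and Nkd2 (400). The phosphoinositide and Ras list had 6 members, 4.80% of its islands, of which 5 were the Inpp4b members and 1 stood at Plcl1 (426). All of these shares were under 5.87%, and the intervals of the Wnt, homing and phosphoinositide lists included it. This background is not matched for island counts, with which the share dropped from 12.4% to 0.20%, and the part of island size was not tested.

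The study's lineage-enriched gene lists ranged from 2.79% of 573 WT distal islands (pan-NK) to 7.06% of 85 (naive CD4) being members, beside 5.87% over all WT distal islands. The intervals of pan-NK (1.73 to 4.49%), plasmacytoid dendritic cell, gamma-delta T and effector CD8 genes lay under this background. Those of the other lists included it, that of naive CD4 genes being 3.28 to 14.6%. Pan-T genes had 18 of 464, 3.88% (2.47 to 6.05%), led by Inpp4b with 5 and Pde11a with 2. For B cell genes it was 25 of 451, 5.54%, with Pou2af1, Ica1 and Sec24d at 2 each. Monocyte genes had 25 of 387, 6.46%, among them the 4 members at Cyth3 and 3 at Pde7b. Granulocyte genes had 55 of 1062, 5.18%, with 6 at Pde4d and 4 each at Syne1 and Rasl11b, and plasmacytoid dendritic cell genes had 21 of 602, 3.49%, with 3 at Egfr. Conventional dendritic cell genes had 14 of 280, 5%, with 1 each at Fbrsl1, Lpar3 and Anpep. Treg genes had 26 of 431, 6.03%, with 3 each at Phactr2 and Specc1. Gamma-delta T genes had 33 of 900, 3.67%, and effector CD8 genes 23 of 717, 3.21%, both with 3 at Ncald. Naive CD8 genes had 6 of 104, 5.77%, at Nedd4, Mcoln2, Racgap1 and others with 1 each.

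Of the differential accessible sites that the study linked to genes, members held 2, both from its cluster C4, in which accessibility was lower in dKO. The App site (chr16:84982915-84983049) lay in an intronic member of 910 counts at chr16:84980201-84986800, and the Acpp site (chr9:104233706-104233826) in an intronic member of 954 counts at chr9:104230001-104235800. Acpp encodes a prostatic acid phosphatase. Shared islands held 36 of 97 autosomal C4 sites. No member held a site of clusters C1, C2 or C3, for which shared islands held 68 of 131, 30 of 79 and 4 of 11. Islands with a C4 site made up 0.13% of members and 0.13% of shared islands. Among shared islands, 0.24% held a C1 site, 0.11% a C2 site and 0.016% a C3 site. Sites of these clusters were thus rare in shared islands too, and their absence from members is not read as a difference.

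Only the super enhancers (SEs) and hubs that the study linked to genes of changed or lineage-enriched expression were used here, which are a subset of those it found. The listed WT-prepotent SEs held 39 members in 19 of 48 autosomal SEs. This was 2.55% of members, 1.99% of shared islands and 0.60% of dKO-only islands. The listed dKO-prepotent SEs held 8 members, 0.52%, against 4.93% and 9.56%. These SE lists came from the same libraries as the islands and are not independent of them. The strongest members in WT-prepotent SEs stood upstream of Cyth3 (1732 counts), 20.3 kb from Gm1631 in the SE paired with Pdk1 and Itga6 (1259) and in Inpp5f (967). In dKO-prepotent SEs they stood in Matn2 near Rpl30 (609), 27.6 kb from Prelp (561) and in Csnk1g1 (518). The listed WT-specific chromatin interaction hubs, from separate Hi-C libraries, held 15 members, 0.98%, against 0.94% of shared islands, and the listed dKO-specific hubs held 5, 0.33%, against 0.45%. The hub members with the most counts were in Zc3h12d (1098), in Ccdc67 (604) and in the hub linked to Nsg2 (587) for WT hubs. For dKO hubs they were 54.4 kb from Ccnd1 (989), 24.7 kb from Art2b (512) and 72.0 kb from Ccnd1 (484).

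Tcf/Lef letters were about as frequent in members as in shared islands. CTTTGAT or CTTTGAA on either strand occurred in the central 1 kb of 538 members, 35.1% (32.8 to 37.6%). The share was 34.6% (34.0 to 35.2%) in shared islands, 31.1% (28.8 to 33.5%) in dKO-only islands and 34.6% over all WT distal islands. Counted over whole islands there were 0.44 matches per kb in members and 0.42 in shared islands. With windows of 44 to 48% GC alone, 33.5% of members and 34.3% of shared islands had a match. Under 40% GC these shares were 45.9% and 41.5%, and at 40 to 44% they were 40.7% and 38.1%. At 48 to 52% they were 27.6% and 31.0%, and from 52% they were 22.7% and 24.2%. At least 1 match stood in 1284 members (83.9%), against 88.7% of shared islands, which were wider. At least 5 stood in 139 members and at least 10 in 3. The Pmp22 island held 11, Rfx4 held 9, and the Marco-nearest, Ntrk3, Cyth3 and App islands held 8 each, all of them wider than the median member. These matches are letters in a window and say nothing of binding.

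Other letters were searched the same way. AGATAA, the GATA letters, occurred in 47.3% of members (44.8 to 49.8%), 43.9% of shared islands (43.3 to 44.5%) and 34.6% of dKO-only islands. TGTGGTT, the RUNX letters, occurred in 22.6%, 24.7% and 23.7%. AGGAAGT (ETS) was found in 27.2% of members and 27.3% of shared islands, and TGANTCA (AP-1) in 27.4% and 27.7%. CAGCTG (E box) was in 43.2% and 41.2%, CCACACCC (KLF) in 8.10% and 8.27%, and AGGTGTGA (T box) in 4.77% and 4.99%. TTCNNNGAA (STAT) was in 29.0% and 28.1%, and IRF letters in 13.9% and 13.6%. Median GC content was 45.0% in members, 45.3% in shared islands and 47.4% in dKO-only islands. The dKO-only islands differed from shared islands in the shares of several letters, which were not matched for GC content. They had fewer with GATA, Tcf/Lef, ETS (24.8%), STAT (24.7%) and IRF (11.0%) letters. More of them had KLF letters (11.6%), while their E box share (43.7%, 41.2 to 46.2%) overlapped that of shared islands (40.6 to 41.8%). In the GC ranges above, from low to high, Tcf/Lef shares of dKO-only islands were 46.7%, 39.1%, 33.2%, 28.6% and 20.1%. Those of shared islands were 41.5%, 38.1%, 34.3%, 31.0% and 24.2%. The part of GC content in the other letters was not tested.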

How the data were processed

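H3K27ac was profiled by ChIP-seq in 4 WT and 3 dKO samples of naive CD8+ T cells, with 1 input per genotype. The authors aligned reads to mm9 with Bowtie2 2.2.5, dropped those with mapping quality of 10 or less, merged replicates by genotype and called islands with SICER 1.1 (window 200 bp, gap 400 bp, FDR 0.01). The deposited lists give raw read counts per island, not scaled for depth, and counts outside islands were not analysed here. The members and gene lists were chosen with earlier results of these data known. TSSs came from 78261 transcripts of 22380 protein-coding genes (GENCODE vM1, mm9). Overlap meant 1 shared bp. Lists of accessible sites, super enhancers, hubs and genes that the study named were used as positions and names only.

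Scripts in Python 3.11.15 with pandas 2.3.3, numpy 2.4.6, scipy 1.17.1 and pysam 0.24.0 computed counts, shares and 95% Wilson intervals, and the overlap and distance steps were tested on simulated data. The text names the 12 members with the most counts, the 8 with the most per kb, those at listed accessible sites, the 10 gene bodies and 3 runs with the most members, the 3 strongest in each set of super enhancers and hubs, the 3 farthest from a dKO island, those beside each threshold, and the leading genes of each list. Other names were chosen after their values were seen and are said to be so. With pooled replicates no test between genotypes was made.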

Additional observations from a re-analysis of the deposited data

How the results depend on the processing

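No paired analysis was possible because the replicates of each genotype were pooled before islands were called, and the columns hold no value per replicate. No fit leaving out a replicate was made for the same reason, and the depth of each library is unknown from these lists. Of 31 alternatives, 12 moved a value by less than its counting interval or 1.5 times and 19 moved it more. The cause was not tested.

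The number of members, 1531, became 6387 with a minimum of 200 counts and 219 with 800, and 653 when no dKO island could lie within 5 kb. The share with Tcf/Lef letters, 35.1%, was 20.4% in a central 500 bp, 83.9% in whole islands, 15.2% for CTTTGAT alone, 31.5% with 800 counts and 38.4% without a dKO island within 5 kb. Shared islands had 19.3% in a central 500 bp, 88.7% in whole islands and 16.2% for CTTTGAT alone. The share in gene bodies, 49.6%, was 53.0% with 800 counts. The share at downregulated genes, 3.20%, was 1.37% in gene bodies, 4.70% by the nearest TSS, 5.02% with 800 counts and 2.14% without a dKO island within 5 kb. At upregulated genes 0.98% became 0.59% by the nearest TSS, 1.83% with 800 counts and 0.31% without a dKO island within 5 kb. Of shared islands with at least 800 counts, 2.69% stood at downregulated and 3.92% at upregulated genes. The share above the dKO median depth, 21.0%, was 11.0% after scaling by mean counts per kb, 39.7% with 800 counts and 76.2% against the 10th percentile.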
